A study of Mus musculus with 2 samples.

Results

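Interleukins are small secreted proteins through which immune, epithelial and stromal cells signal to each other, and each acts on cells that carry its receptor, usually a pair of chains of which one is often shared between several interleukins. Most receptors of the family signal through JAK kinases and STAT factors, whereas the receptors for the IL-1 and IL-17 families signal through adaptor proteins to NF-kappaB. In the colon the family is known for the exchange between lymphocytes and the epithelium, in which IL-17 and IL-22 made by lymphocytes act on epithelial cells. The genes described here are the 81 protein-coding mouse genes whose symbol starts with Il followed by a number, with 1 such gene not analysed here. They are 36 ligand genes, 40 receptor chain genes and 5 other genes, which are soluble antagonists (Il1rn, Il18bp, Il22ra2 and Il1f5) and an enzyme that carries the name of its inducer (Il4i1). The tables held 43346 Ensembl genes, of which 21474 were protein-coding.

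The RNA came from whole colon of 8 week old mice of strain C57BL/6J with no treatment given in the labels. There were 2 libraries, labelled biological replicates 1 and 2 of 1 group. Both name the same donor record and pooled littermates of both sexes, but the sex-linked counts given below differ between them. How much of their spread is technical cannot be told. Expected counts of Ensembl genes summed to 46271167 in replicate 1 and 45499561 in replicate 2. The interleukin genes took 0.118% and 0.117% of them in replicates 1 and 2.

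The libraries differed in their tissue content and went against their sex label. The 11 pancreatic acinar genes checked summed to 622 TPM (transcript abundance scaled to the same total in each library) in replicate 1 and 37312 TPM in replicate 2. The 5 erythroid genes summed to 525 TPM in replicate 1 and 2998 TPM in replicate 2. Xist had 8721 counts in replicate 1 and 12 in replicate 2, while 4 Y-linked genes together had 0 counts in replicate 1 and 1382 in replicate 2. All markers listed for some cell types found in colon were present at 1 TPM or more in each library. They were 9 of 9 epithelial genes, 5 of 5 smooth muscle genes, 6 of 6 fibroblast genes, 5 of 5 endothelial genes and 9 of 9 macrophage and dendritic cell genes. Other lists were present in part, with 5 of 6 B and plasma cell genes, 3 of 5 tuft cell genes and 3 of 7 T cell genes. The innate lymphoid and natural killer list had 2 of 7, the mast cell and eosinophil list 2 of 8 and the neutrophil list 1 of 5. Of 5 small intestine genes 1 reached that level, Alpi at 36.4 TPM in replicate 1 and 27.8 TPM in replicate 2. Of 6 stratified squamous genes 1 did so. In whole tissue, fewer cells of a type and less RNA per cell cannot be told apart.

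The colon held RNA for receptors far more than for ligands. With detection set at 1 TPM or more in both libraries, 22 of the 40 receptor genes (55%) and 7 of the 36 ligand genes (19.4%) were detected, as were 3 of the 5 other genes. Over all protein-coding genes the share was 57.9%, so the receptor genes were near it and the ligand genes were under it. The median receptor gene stood at 1.98 TPM in replicate 1 and 1.73 TPM in replicate 2. For ligands the median was 0.02 TPM in replicate 1 and 0.03 TPM in replicate 2, against 2.72 and 2.87 TPM over all protein-coding genes. Summed over genes, receptors came to 685 TPM in replicate 1 and 688 TPM in replicate 2, and ligands to 101 and 89.9 TPM.

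**Figure D1:**
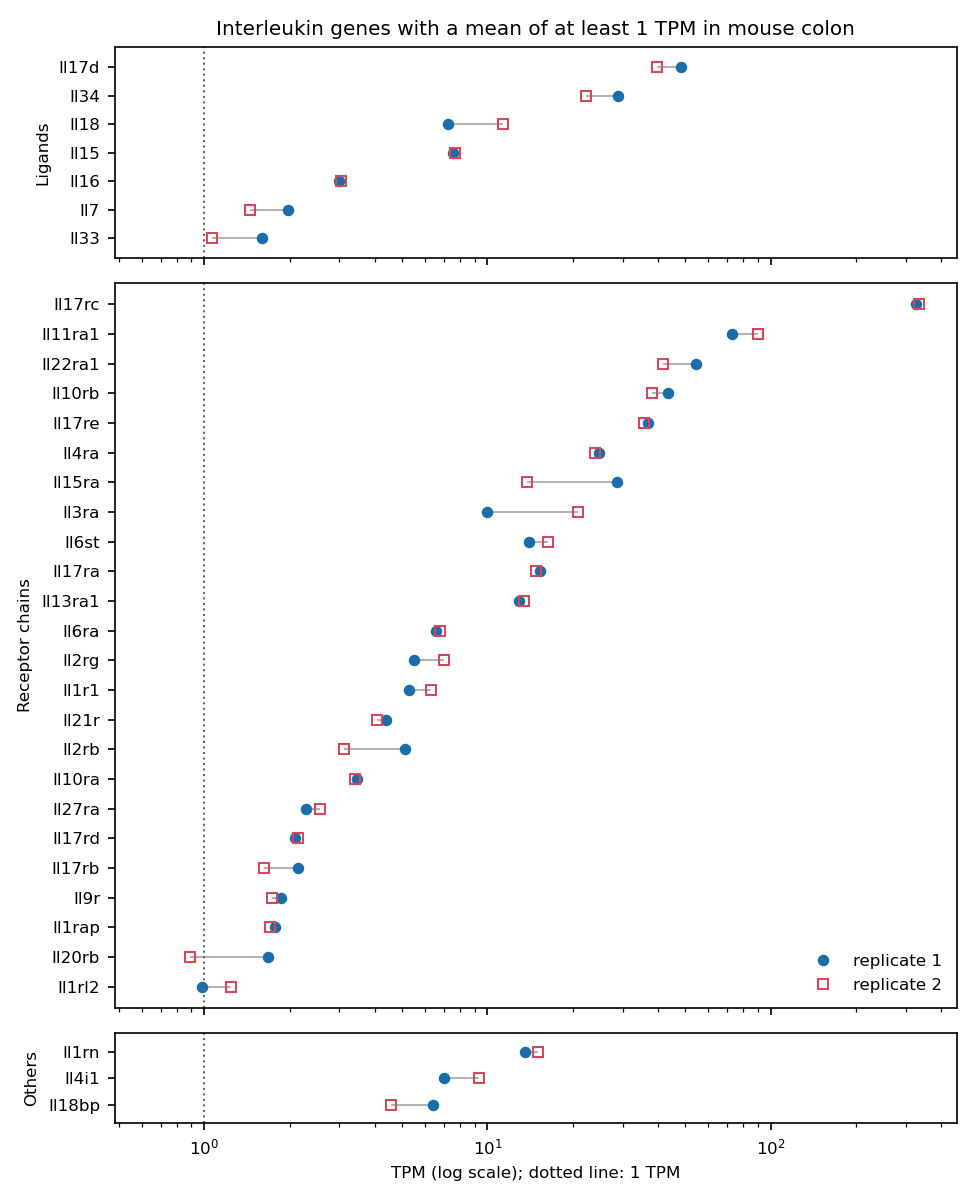
Level of the 34 interleukin genes with a mean of at least 1 TPM, on a log axis, with a filled blue circle for replicate 1, an open red square for replicate 2 and a dotted line at 1 TPM. Il17rc, at 326 and 334 TPM, stands apart on the right, and the ligands are led by Il17d and Il34.

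Among ligands, Il17d and Il34 carried most of the RNA. Il17d, a member of the IL-17 family, lies at chr14:57524777-57543166 (mm10, plus strand, ENSMUSG00000050222.10) and had 48.4 TPM in replicate 1 and 39.6 TPM in replicate 2, from 1788 and 1458 counts. It made up 47.7% of all ligand TPM in replicate 1 and 44.1% in replicate 2. Il34, a ligand of the macrophage receptor Csf1r, lies at chr8:110741829-110805924 (mm10, minus strand) and had 29.0 TPM in replicate 1 and 22.4 TPM in replicate 2. These ligands together made up 76.3% of ligand TPM in replicate 1 and 68.9% in replicate 2, and in both libraries Il17d stood above Il34, which stood above every other ligand.

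The remaining detected ligands were at lower levels. Il18, an IL-1 family cytokine that caspase-1 activates, had 7.23 TPM in replicate 1 and 11.3 TPM in replicate 2. Il15, which supports lymphocytes and is presented to them by Il15ra, had 7.55 TPM in replicate 1 and 7.66 TPM in replicate 2. The order of these neighbours turned between the libraries. Il16, a CD4 ligand, had 2.98 and 3.03 TPM in replicates 1 and 2. Il7, a survival factor for lymphocytes, had 1.97 TPM in replicate 1 and 1.45 TPM in replicate 2. Il33, a nuclear cytokine released on cell damage, had 1.60 TPM in replicate 1 and 1.06 TPM in replicate 2 and lay closest to the detection threshold.

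No count was assigned in either library to 14 ligand genes. They were Il3, Il4, Il5, Il6, Il9, Il13, Il17a, Il19, Il1f10, Il20, Il21, Il22, Il24 and Il31, which include the defining cytokines of type 2 and type 17 responses. A count of 0 allows up to 3 counts, which over these genes and both libraries corresponds to 0.0516 to 0.252 TPM. The upper bounds that the authors deposited with their TPM estimates lay more than 1.1 times above that limit for 5 of these genes (Il4, Il19, Il20, Il21 and Il24), and the highest, for Il4, was 0.610 TPM in replicate 1 and 0.600 TPM in replicate 2. For Il22, the lymphocyte cytokine that acts on epithelium, this limit was 0.0912 TPM in replicate 1 and 0.0914 TPM in replicate 2. For Il17a it was 0.0854 TPM in replicate 1 and 0.0857 TPM in replicate 2. The limits from 3 counts cover counting error only, and not the division of reads between features.

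Another 15 ligand genes had counts but were below 1 TPM in both libraries, and 10 of them had fewer than 10 counts over both libraries. Il11, a cytokine of stromal cells, came closest to the threshold, with 0.81 TPM in replicate 1 and 0.95 TPM in replicate 2. The inflammatory cytokine Il1b had 0.29 TPM in each library, from 12 counts in each. Il23a, the subunit particular to IL-23, had 0.21 TPM in replicate 1 and 0.22 TPM in replicate 2. Il10, an anti-inflammatory cytokine, had 1 count in replicate 1 and 7 counts in replicate 2.

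Lymphocyte markers were low in the same libraries. The 7 T cell genes found summed to 12.3 TPM in replicate 1 and 10.7 TPM in replicate 2, and 3 of them (Cd3e, Cd4 and Lck) were detected. Cd3e, a subunit of the T cell receptor complex, had 1.18 TPM in replicate 1 and 1.19 TPM in replicate 2. Ncr1, a receptor of natural killer and some innate lymphoid cells, stood at 0.09 TPM in replicate 1 and 0.11 TPM in replicate 2. The 8 mast cell and eosinophil genes summed to 5.52 TPM in replicate 1 and 5.93 TPM in replicate 2. Of the 5 neutrophil genes only Ly6g was detected, and S100a8 and S100a9 had 0 TPM in replicate 1 and 0.29 and 0.44 TPM in replicate 2. The part of cell content in the ligand levels was not tested.

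Among receptors, Il17rc stood far above the rest. This chain pairs with Il17ra to bind IL-17A and IL-17F, lies at chr6:113471427-113483140 (mm10, plus strand, ENSMUSG00000030281.12) and had 326 TPM in replicate 1 and 334 TPM in replicate 2, from 17410 and 17541 counts. It ranked 393 in replicate 1 and 355 in replicate 2 among the protein-coding genes. Il17rc alone made up 47.6% of receptor TPM in replicate 1 and 48.5% in replicate 2. The 5 Il17r chains together made up 55.8% and 56.4%. Il17re, the chain that binds IL-17C, had 36.9 TPM in replicate 1 and 35.8 TPM in replicate 2. Il17ra, the chain shared by the family, had 15.3 TPM in replicate 1 and 14.8 TPM in replicate 2. The chains therefore stood in a ratio of Il17rc to Il17ra of 21.3 in replicate 1 and 22.5 in replicate 2, and of Il17re to Il17ra of 2.41 and 2.42. The Il17rc level sums all its transcripts. Il17rc-201, the only transcript of them found in GENCODE vM21, had 136 TPM in replicate 1 and 138 TPM in replicate 2, so the ratio depends on the transcripts counted. Il17rd and Il17rb were low, at 2.09 and 2.14 TPM in replicate 1 and 2.14 and 1.63 TPM in replicate 2.

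Il17re and Il17rc lie next to each other on the same strand of chromosome 6, with 668 bases between the end of Il17re and the start of Il17rc. Their promoters are shown because the 2 neighbours differ so much in level: both run 5′ to 3′ from 250 bases before to 50 bases after the RefSeq start (GRCm38.p6), and capitals mark GGGCGG.
Il17rc, chr6:113471205-113471504, plus strand: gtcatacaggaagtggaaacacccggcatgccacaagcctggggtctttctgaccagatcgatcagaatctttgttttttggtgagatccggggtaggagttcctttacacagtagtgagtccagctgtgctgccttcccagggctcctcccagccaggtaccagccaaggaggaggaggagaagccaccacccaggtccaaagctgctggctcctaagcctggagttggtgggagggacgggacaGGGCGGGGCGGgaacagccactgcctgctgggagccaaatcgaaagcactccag
Il17re, chr6:113458521-113458820, plus strand: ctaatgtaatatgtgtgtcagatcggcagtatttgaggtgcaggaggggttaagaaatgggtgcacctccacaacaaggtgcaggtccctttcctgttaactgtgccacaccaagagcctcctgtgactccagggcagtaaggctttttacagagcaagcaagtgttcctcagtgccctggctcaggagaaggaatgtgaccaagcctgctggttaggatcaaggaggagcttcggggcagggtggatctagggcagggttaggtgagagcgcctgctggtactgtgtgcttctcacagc

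The Il17rc window held 2 overlapping copies of GGGCGG, 7 CpG and 58.7% G and C. The Il17re window held no copy of it, 3 CpG and 53.7% G and C. That window lies wholly inside Il17re as GENCODE vM21 places the gene, from position 113458484, because the RefSeq start lies further in. Searched on both strands, GGGCGG was in 35.7% of the 32851 RefSeq promoters of the same length, whose median was 52.7% G and C with 7 CpG. The motif TATAAA was in 13.6% of them, TTTATGG in 2.75% and TTTATTG in 4.60%, and none of these was in either window. The window of Il22ra1, at 54.5 TPM in replicate 1 and 41.6 TPM in replicate 2, held 2 copies of GGGCGG, 11 CpG and 64% G and C. The matches describe letters and are not sites of binding, and their part in the levels was not tested.

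The next receptors by level were those for IL-11, IL-22 and IL-10. Il11ra1, the chain that binds IL-11, had 73.1 TPM in replicate 1 and 90.3 TPM in replicate 2. Il22ra1, the chain of epithelial cells that binds IL-22, had 54.5 TPM in replicate 1 and 41.6 TPM in replicate 2. Il10rb, a chain shared by the receptors for IL-10 and IL-22, had 43.4 TPM in replicate 1 and 38.1 TPM in replicate 2. Il22ra1 thus stood at 1.25 and 1.09 times Il10rb in replicates 1 and 2. Il10ra, the chain particular to IL-10, was much lower, at 3.47 TPM in replicate 1 and 3.40 TPM in replicate 2, so that Il10rb was 12.5 and 11.2 times as high.

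The shared chains of the IL-6 and IL-2 groups stood lower. Il6st, the signalling chain for IL-6 and IL-11, had 14.0 TPM in replicate 1 and 16.3 TPM in replicate 2. The authors' posterior means for Il6st were 28.1 TPM in replicate 1 and 20.6 TPM in replicate 2, which turns the order of the libraries. Il6ra, which binds IL-6, had 6.57 TPM in replicate 1 and 6.80 TPM in replicate 2. Il2rg, the chain shared by the receptors for IL-2, IL-4, IL-7, IL-9, IL-15 and IL-21, had 5.48 TPM in replicate 1 and 7.02 TPM in replicate 2. Of the partners of Il2rg, Il4ra had 24.9 and 24.0 TPM in replicates 1 and 2. Il15ra had 28.7 TPM in replicate 1 and 13.8 TPM in replicate 2, Il2rb had 5.13 and 3.12 TPM, and Il21r had 4.37 and 4.07 TPM. Il9r was near 2 TPM, at 1.87 TPM in replicate 1 and 1.74 TPM in replicate 2. The chains that mark T cells were lower still: Il7r had 0.20 TPM in replicate 1 and 0.24 TPM in replicate 2, and Il2ra had 0.16 and 0.11 TPM.

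The other detected receptor genes were Il13ra1, a chain for IL-4 and IL-13, with 12.9 TPM in replicate 1 and 13.4 TPM in replicate 2, and Il3ra, which binds IL-3, with 9.96 and 20.9 TPM. Il1r1, which binds IL-1, had 5.28 TPM in replicate 1 and 6.33 TPM in replicate 2, and its partner Il1rap had 1.78 and 1.71 TPM. Il27ra, which binds IL-27, had 2.29 TPM in replicate 1 and 2.57 TPM in replicate 2. Just outside detection, Il20rb was at 1.68 TPM in replicate 1 and 0.89 TPM in replicate 2, and Il1rl2, which binds IL-36, was at 0.98 and 1.24 TPM. In all, 17 receptor genes had counts but missed detection, and Il1rapl2, known from neurons, had none. Il18r1 and Il18rap, the chains for IL-18, stood at 0.06 and 0.09 TPM in replicate 1 and at 0.10 and 0.08 TPM in replicate 2.

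Ligands and receptors were then set side by side in 26 receptor complexes from textbook knowledge, some of which share chains. The detected ligands Il17d and Il16 were in none of these complexes, so they could not count as paired. All chains were detected in 15 of them, but a ligand as well in only 3: IL-15, IL-34 and IL-27, the last only through its subunit Ebi3 at 5.61 TPM in replicate 1 and 4.75 TPM in replicate 2, since Il27 itself had 0 and 0.14 TPM. Csf1r, the receptor for IL-34, had 22.0 TPM in replicate 1 and 23.4 TPM in replicate 2. In 12 complexes every chain was detected and no ligand was, among them those for IL-17A and IL-17F, IL-17C, IL-22, IL-10, IL-6, IL-11 and IL-4. In whole tissue, whether the chains of a complex were in the same cells cannot be told. The opposite case, a detected ligand without all chains, was found for IL-18, IL-33 and IL-7. For IL-33 it turns on the threshold, with Il33 at 1.60 TPM in replicate 1 and 1.06 TPM in replicate 2. Its chain Il1rl1 had 0.76 TPM in replicate 1 and 0.99 TPM in replicate 2, and 1 and 1.26 TPM by posterior means. For IL-7 it rests on non-coding RNA: the protein-coding transcripts of Il7 had 0.78 TPM in replicate 1 and 0.47 TPM in replicate 2, under the threshold. The remaining 8 had neither, among them those for IL-12 and IL-23. Cd93, reported in mouse as a receptor for IL-17D and looked up after these values were seen, had 3.84 TPM in replicate 1 and 3.41 TPM in replicate 2. Cd4, which Il16 binds, had 2.68 TPM in replicate 1 and 2.44 TPM in replicate 2.

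**Figure D2:**
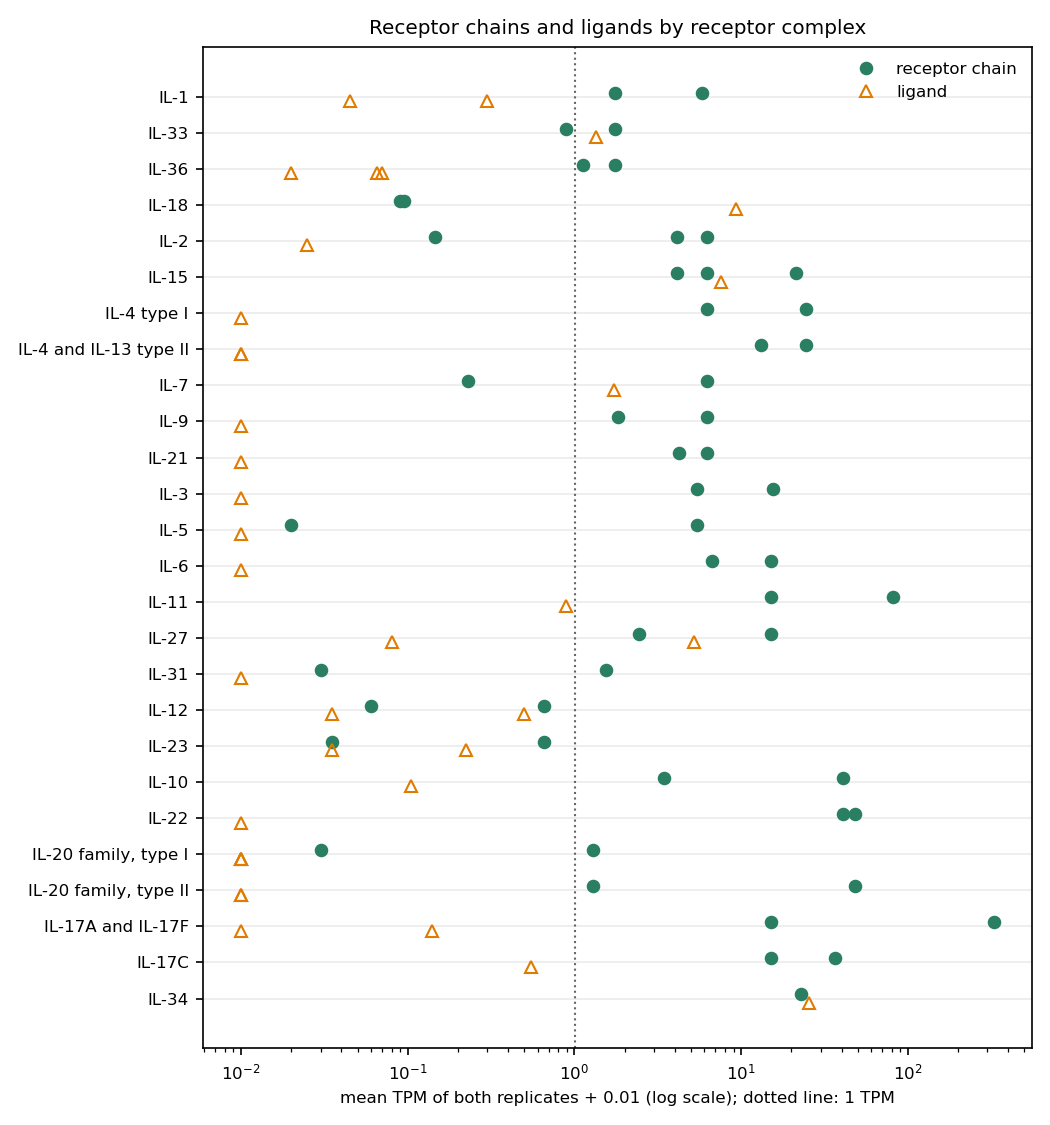
Mean level over both libraries plus 0.01 TPM, on a log axis, of each receptor chain (green circles) and ligand (orange triangles) in 26 receptor complexes, with a dotted line at 1 TPM. In the 12 complexes with every chain and no ligand detected, all circles lie right of the line and all triangles left of it, and those for IL-18, IL-33 and IL-7 have their triangle right of the line with a circle left of it; the IL-36 and IL-20 type II complexes have all circles right of the line by their means alone, since detection needs 1 TPM in both libraries.

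Some genes of the family lie together in the genome. Within 100 kb of each other lay 24 pairs of neighbouring members, of which 2 had both genes detected, 5 had 1 and 17 had none. The pairs with both were Il17re with Il17rc and Il4ra with Il21r. In the cluster of receptor genes on chromosome 1, Il1r1 was detected while Il1r2, at 0.05 TPM in replicate 1 and 0.18 TPM in replicate 2, was not. Il15ra was detected and its neighbour Il2ra, 12096 bases away, was not. On chromosome 2, Il1rn was the only detected gene of the row Il1f8, Il1f9, Il1f6, Il1f5, Il1f10 and Il1rn.

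Of the antagonists, Il1rn, which blocks the IL-1 receptor, had 13.6 TPM in replicate 1 and 15.1 TPM in replicate 2. Its level was 46.8-fold that of Il1b in replicate 1 and 52.2-fold in replicate 2, and 28.0-fold and 30.8-fold by posterior means, with 12 counts of Il1b in each library. Il18bp, which binds IL-18, had 6.41 TPM in replicate 1 and 4.55 TPM in replicate 2. Il22ra2, a soluble receptor for IL-22, had 0.65 and 0.66 TPM, and Il1f5 had 0 counts in both libraries. Il4i1, an L-amino acid oxidase, had 7.02 TPM in replicate 1 and 9.37 TPM in replicate 2.

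Il1rn is known to make a secreted form and intracellular forms that start from different first exons. In the tables its RNA was mostly Il1rn-204, at 91.7% of the gene's TPM in replicate 1 and 55.9% in replicate 2. Il1rn-201, the secreted form, made up 4.63% in replicate 1 and 17.9% in replicate 2, and Il1rn-202 made up 0% and 24.1%. The first 60 coding bases are shown because they are where the forms part, with capitals for the bases that belong to 1 form alone and lower case for those all 3 share (reference sequence, GENCODE vM21, chromosome 2).
Il1rn-204: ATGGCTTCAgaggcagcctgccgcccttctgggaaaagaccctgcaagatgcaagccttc
Il1rn-201: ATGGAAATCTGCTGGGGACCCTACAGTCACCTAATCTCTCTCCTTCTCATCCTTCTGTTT
Il1rn-202: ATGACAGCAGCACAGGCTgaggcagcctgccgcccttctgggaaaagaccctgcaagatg

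The starts of their own were 9 bases in Il1rn-204, 66 in Il1rn-201 and 18 in Il1rn-202, followed by 468 shared coding bases. Reads of the shared stretch were divided between the forms by estimation, and the difference in shares between the libraries was not tested. With Il1rn-204 as the longest of them, the average effective length of the gene was 2180 bases in replicate 1 and 1735 bases in replicate 2. The gene's log2 ratio of replicate 1 over replicate 2 was 0.16 by counts and -0.16 by TPM.

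Other genes also had several transcripts. Of the 34 genes with a mean of at least 1 TPM, 12 had a single transcript in the tables, and 20 of the other 22 had the same leading transcript in both libraries. The exceptions were Il17re, led by Il17re-201 with 60.3% in replicate 1 and by Il17re-202 with 55.9% in replicate 2, and Il20rb. By posterior means the leading transcript of Il6st also differed, with Il6st-202 at 48.9% in replicate 1 and Il6st-201 at 43.9% in replicate 2. For Il15ra the leading form was Il15ra-215, a coding transcript of 405 bases, with 76.3% in replicate 1 and 46.8% in replicate 2. Il15ra had 501 counts in replicate 1 and 396 counts in replicate 2, a log2 ratio of 0.31, whereas its TPM gave a log2 ratio of 1.05. The ratios by counts and by TPM differed by more than 0.3 for 4 of the 49 genes that could be compared, which were Il15ra, Il12a, Il11ra1 and Il1rn. Il17rc had its leading Il17rc-201 at 41.6% in replicate 1 and 41.2% in replicate 2. The other 5 of its 6 transcripts are not in GENCODE vM21, so their coding status was not looked up, and they carried 58.4% of the gene's TPM in replicate 1 and 58.8% in replicate 2. One of them, of 426 bases, had 73.4 TPM in replicate 1 and 77.2 TPM in replicate 2 from 579 and 630 counts.

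**Figure D3:**
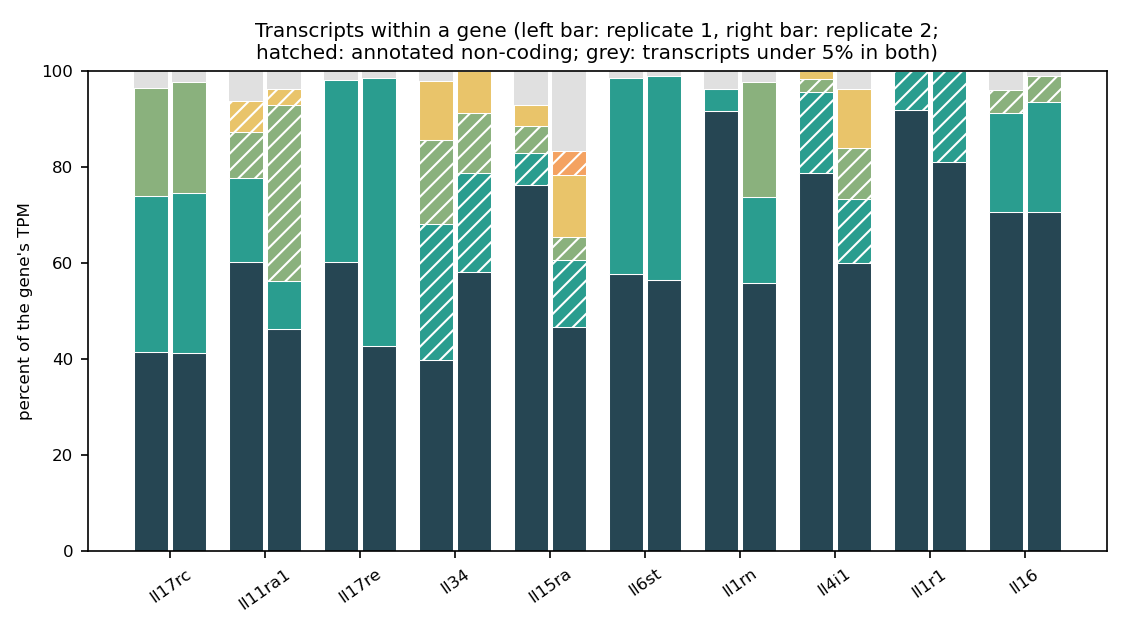
Percent of each gene's TPM by transcript for the 10 genes with a mean of at least 2 TPM and 2 or more transcripts over 10%, with replicate 1 as the left bar and replicate 2 as the right bar of each pair; colours rank a gene's transcripts by their share in replicate 1, hatching marks transcripts annotated as non-coding and grey those under 5% in both. Il17rc and Il16 have nearly the same bars in both libraries, as has Il6st on this measure but not by posterior means, while Il1rn and Il15ra do not.

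Some RNA counted to these genes was not coding. In Il11ra1 the retained intron transcript Il11ra1-205 made up 9.67% of TPM in replicate 1 and 36.6% in replicate 2. In Il7 the non-coding Il7-202 led, with 60.3% in replicate 1 and 67.5% in replicate 2. In Il34 the non-coding share was 48.0% in replicate 1 and 33.2% in replicate 2, and the coding Il34-201 led with 39.9% in replicate 1 and 58.2% in replicate 2.

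The Il11ra genes are near-identical copies, so the split of reads between them is uncertain. Il11ra1-201 and Il11ra2-201 have coding sequences of 1296 bases each that differ at 13 positions, an identity of 99.0%. The stretch around the first of them, coding position 357, is shown with that base in capitals (reference sequence, GENCODE vM21, chromosome 4).
Il11ra1-201, positions 327 to 386: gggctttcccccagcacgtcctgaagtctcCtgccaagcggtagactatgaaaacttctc
Il11ra2-201, positions 327 to 386: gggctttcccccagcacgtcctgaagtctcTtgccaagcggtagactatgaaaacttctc

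The estimate gave Il11ra1 3943 counts in replicate 1 and 3612 counts in replicate 2, and gave Il11ra2 4.63 and 7.81 counts. Il11ra1 also overlaps Galt on its own strand, which had 101.7 TPM in replicate 1 and 92.7 TPM in replicate 2. Il4i1 overlaps Nup62 on its own strand. Il17c overlaps Gm20388 on its own strand, which had 27.9 TPM in replicate 1 and 25.8 TPM in replicate 2. Il18bp overlaps Numa1, Il18 overlaps Bco2 and Il16 overlaps Stard5 on the other strand. Whether counting used the strand is not given in the sources used here, so the levels of these genes are uncertain.

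Replicate 1 was compared with replicate 2 gene by gene on expected counts. These libraries also differed in Xist and Y-linked counts, so sex and replicate cannot be told apart. With 1 library on each side there is no replicate check, so the two-sided exact binomial test compares these libraries by counting error alone. Among genes with 10 or more counts over both libraries, 1125 of 17713 (6.35%) differed by at least 2-fold with an adjusted p no higher than 0.05, 451 higher in replicate 1 (2.55%) and 674 higher in replicate 2 (3.81%). Of the 81 interleukin genes 49 had enough counts, and 3 of them differed, a share near that of all genes tested. The median absolute log2 ratio was 0.25 over the interleukin genes and 0.23 over all genes tested, and 89.8% of the interleukin genes and 91.2% of all tested genes lay within 2-fold. The 49 had passed the count minimum and leave out 32 members, most of them ligands.

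Il17c, an epithelial cytokine that binds Il17re, was higher in replicate 1, with 0.91 TPM in replicate 1 and 0.16 TPM in replicate 2. It lies at chr8:122422020-122423639 (mm10, plus strand). These levels rest on 17 counts in replicate 1 and 3 counts in replicate 2, and the log2 ratio was 2.29 (95% counting interval 0.68 to 4.88, adjusted p = 0.00666 by the exact binomial test). Il12a, a subunit of IL-12, was higher in replicate 2, with 7 counts in replicate 1 and 22 in replicate 2 and a log2 ratio of -1.62 (interval -3.15 to -0.41, adjusted p = 0.0117 by the same exact test).

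Il3ra was higher in replicate 2 and is the 1 difference that rests on many counts. It lies at chr14:14346275-14356011 (mm10, plus strand) and had 431 counts in replicate 1 and 902 counts in replicate 2, a log2 ratio of -1.10 (interval -1.27 to -0.93, adjusted p = 1.18e-39 by the exact binomial test). Its partner Csf2rb, the common beta chain, had 5.64 TPM in replicate 1 and 5.21 TPM in replicate 2. The acinar genes (11 of 11) and the erythroid genes (5 of 5) were also higher in replicate 2, as were the Y-linked counts. The part of tissue content and of sex in the Il3ra difference was not tested. Under an edgeR exact test at the common dispersion of the libraries, in which a gene varies by 27.1% between them, none of the 49 genes differed, with an adjusted p of 0.698 for Il17c and 1 for Il12a and Il3ra. At an unadjusted p under 0.05 that test gave 1 gene, and Il3ra had an unadjusted p of 0.0548.

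**Figure D4:**
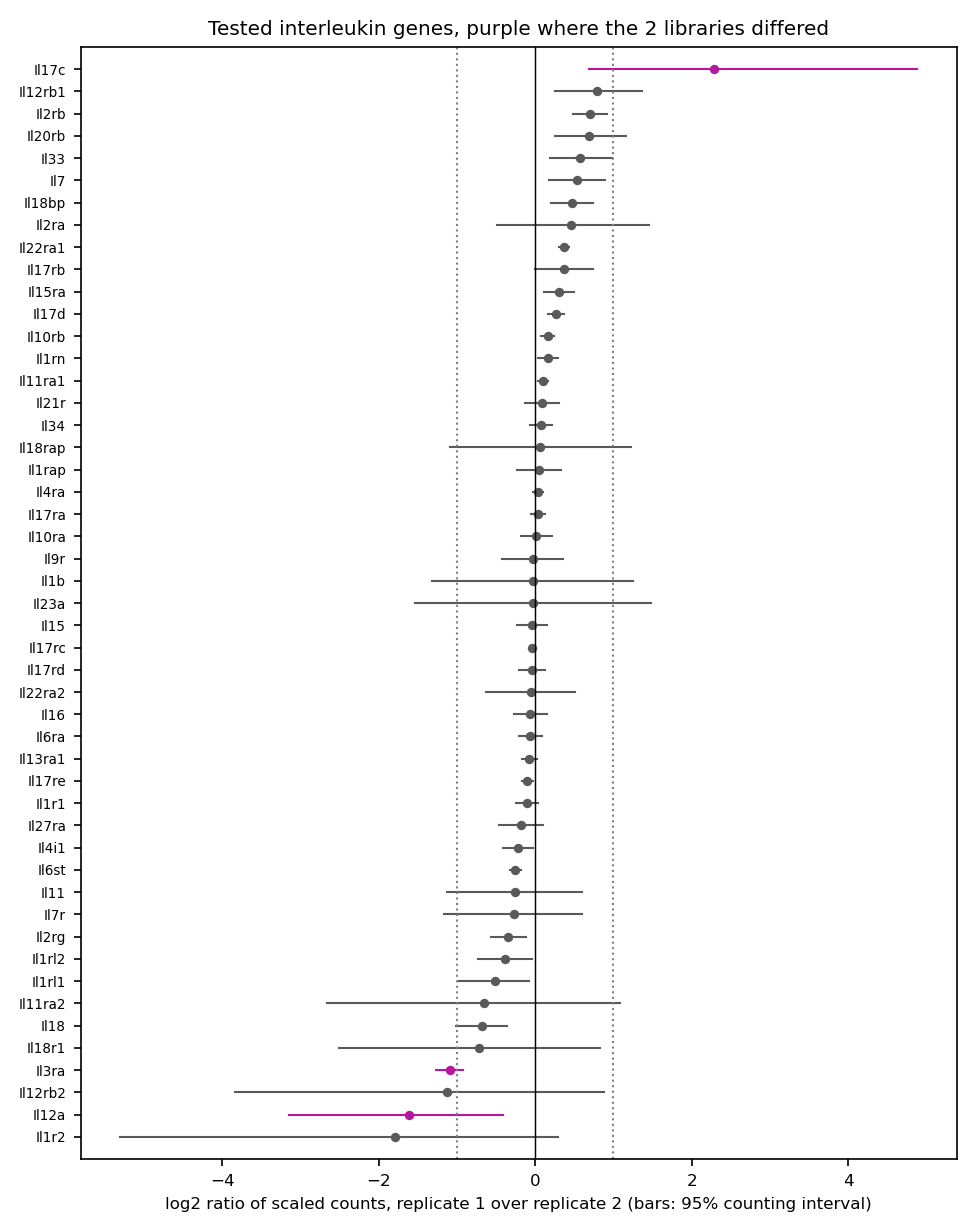
Log2 ratio of scaled counts, replicate 1 over replicate 2, for the 49 interleukin genes with 10 or more counts over both libraries; bars are 95% counting intervals, dotted lines mark 2-fold and purple marks the 3 genes that differed. Il17c lies at 2.29 on the right, Il3ra at -1.10 and Il12a at -1.62 on the left, and 44 of the 49 genes lie between the dotted lines.

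Without the 2-fold minimum, 23 of the 49 genes (46.9%) differed by counting error, against 49.5% of all genes tested. Among those under 2-fold, Il22ra1 was higher in replicate 1, with a log2 ratio of 0.37 from 4698 counts in replicate 1 and 3555 in replicate 2. Il2rb was higher in replicate 1 with a log2 ratio of 0.70, and Il18 was higher in replicate 2 with a log2 ratio of -0.69. For Il17rc the log2 ratio was -0.04 (interval -0.07 to -0.01).

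The genes through which these receptors signal were nearly all present, with 34 of 35 detected. With 10 genes that activate or release IL-1 family cytokines and 17 shared chains and related cytokines, the lists held 62 genes. Of these, 55 (88.7%) were detected, against 57.9% of protein-coding genes. Of the 59 tested, 0 were higher in replicate 1, against 2.55% of all genes tested, and 2 were higher in replicate 2 (3.39%), against 3.81%. All 18 genes of the IL-1 and IL-17 receptor pathway were detected, led by the kinase Irak1 at 152 TPM in replicate 1 and 157 TPM in replicate 2, the NF-kappaB inhibitor Nfkbia at 84.8 and 93.3 TPM and the NF-kappaB subunit Nfkb1 at 93.3 and 74.8 TPM. Of the 17 JAK and STAT genes 16 were detected, led by Stat3 at 80.1 TPM in replicate 1 and 73.7 TPM in replicate 2, Stat6 at 71.8 and 59.7 TPM and the inhibitor Socs2 at 56.5 and 46.2 TPM. Stat3 is the factor used by IL-22 and IL-6 and Stat6 the one used by IL-4 and IL-13. The exception, Stat4, which IL-12 uses, had 10 counts in replicate 1 and 25.5 counts in replicate 2 and was higher in replicate 2, with a log2 ratio of -1.37. That call was lost under the edgeR exact test, and at 100 or more summed counts Stat4 was not tested.

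Among genes that activate or release IL-1 family cytokines, 7 of 10 were detected. The highest was the inflammasome adaptor Pycard at 165 TPM in replicate 1 and 191 TPM in replicate 2. Next were the pore protein Gsdmd at 68.8 and 71.0 TPM and the DNA sensor Aim2 at 8.27 and 9.12 TPM. Casp1, the gene of caspase-1, was lower, at 2.49 TPM in replicate 1 and 4.06 TPM in replicate 2. Nlrp1b, an inflammasome sensor with near-identical copies, had 2 counts in replicate 1 and 172 counts in replicate 2 and was higher in replicate 2. Its log2 ratio was -6.14. The copies Nlrp1a and Nlrp1c-ps had 0 counts each in replicate 1 and 2 and 6 counts in replicate 2. Of 17 shared chains and related cytokines 14 were detected, led by Csf2ra at 71.2 TPM in replicate 1 and 66.5 TPM in replicate 2, the inhibitory receptor Sigirr at 31.6 and 27.5 TPM and the TSLP receptor chain Crlf2 at 19.9 and 26.9 TPM. The ligand Tslp itself had 0 counts in replicate 1 and 3 counts in replicate 2.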

How the data were processed

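Polyadenylated RNA of mouse colon was read in 2 libraries. Expected counts (read counts estimated per gene and transcript), TPM, a posterior mean of TPM, FPKM and the percent of a gene's TPM per transcript are used as deposited by the authors, on mm10 with GENCODE M4 per the deposited file notes. No source used here gives the quantifier version or its use of strand. Symbols and coordinates came from GENCODE vM21 (42462 of 43346 Ensembl genes matched), promoters from RefSeq GRCm38.p6. Files on mm9 were not used here.

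Expected counts were rounded and compared by a two-sided exact binomial test (scipy 1.17.1) with TMM-scaled library sizes (edgeR 4.0.16, R 4.3.3: 46373909 in replicate 1 and 45398744 in replicate 2), Benjamini-Hochberg adjustment over genes whose counts summed to 10 or more, and 0.5 added to counts for log2 ratios. A quasi-likelihood fit has no residual degrees of freedom here. The test was tested on simulated data. Alternatives were DESeq2 1.42.0 size factors, total counts, other filters, the edgeR exact test, and other measures and thresholds of detection. Named are members with a mean of at least 1 TPM, members that differed, partners of described genes and the 3 highest genes of each list. Transcripts are described at a mean of at least 2 TPM with 2 or more over 10%. Il7, Il20rb, Stat4, Casp1, Nlrp1b, Tslp, Cd93 and Alpi, outside these rules, were chosen after their values were seen. Members and lists were chosen with earlier results of these data known.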

Additional observations from a re-analysis of the deposited data

How the results depend on the processing

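No paired analysis was possible because there is 1 group. The counts of detected ligand, receptor and other genes stayed within 1.5 times at 0.5 TPM, 2 TPM, a count of 10, posterior means, and (chosen after seeing the data) without non-coding transcripts, where ligands were 6, without Il7. In single libraries 7 to 7 ligands, 23 to 23 receptors and 3 to 3 others were detected. The median ligand level, 0.025 TPM, was 0.153 by posterior mean TPM and 0.0175 by FPKM, and the median receptor level, 1.85 TPM, was 1.45 by FPKM. The 3 differing interleukin genes became 1 at a summed count of 100 (Il3ra), 23 with no minimum log2 ratio and 0 by the edgeR exact test. The 2 pathway genes became 1, 29 and 1 under these settings (Nlrp1b without Stat4 where 1), and the 1125 differing genes over all tested became 415, 8765 and 239; for the edgeR test the added spread between libraries is the construction. Other library sizes and a summed count of 1 kept the same 3 interleukin genes. Of 34 gene levels 28, and of 20 transcript shares 15, lay within 1 SD between the libraries of their posterior mean, a span that is wide where the libraries disagree and so no sign of stability. The mean of Il6st was 24.3 TPM by posterior means. With 1 library on a side, no difference here has a replicate check, and genes under 10 summed counts (32 of the members) were not tested.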
